A study of Mus musculus with 48 samples.

Results

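The genes described here belong to the bone morphogenetic protein (BMP) pathway. They are the ligand gene *Bmp4*, the receptor gene *Bmpr1a*, the inhibitor genes *Smad6* and *Grem1*, and the inhibitor of DNA binding genes *Id1*, *Id2*, *Id3* and *Id4*. They were chosen by name, with earlier results of these data known, and are 8 of the 24264 transcripts in the count table, of which 19768 had at least 1 read. All 8 passed the filter on low counts, which left 15630 genes for testing.

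BMP ligands bind complexes of type I and type II receptor kinases, which phosphorylate the receptor SMADs Smad1, Smad5 and Smad9. These enter the nucleus with Smad4 and switch on target genes, of which the *Id* genes are the best known. Id proteins cannot bind DNA and hold E proteins in inactive pairs, which restrains the basic helix-loop-helix factors of differentiation, and in mouse embryonic stem cells (ESCs) cultured with LIF, BMP and the Id proteins it induces help to hold back neural differentiation.

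RNA of 48 libraries from 20 conditions was sequenced from the 5′ ends of transcripts by STRT, a tagged reverse transcription method, so that read numbers do not scale with transcript length. Reprogramming was driven by MKOS or OKMS, doxycycline-inducible cassettes in which the initials give the order of *Myc* (M), *Klf4* (K), *Oct4* (O) and *Sox2* (S) on 1 transcript. The OKMS cassette carries a shorter Klf4. Each cassette, with a CAG-driven rtTA, had been targeted to an intron of *Sp3* in TNG ESCs, whose *Nanog* locus expresses GFP. Mouse embryonic fibroblasts (MEFs) from chimeric embryos of these ESCs were diluted with an excess of wild-type (WT) MEFs, cultured in serum, LIF, doxycycline and vitamin C, and sorted on day 10, although the culture protocol of the labels gives 10 or 15 days. The sorted cells were 2NG- (CD44low ICAM1low *Nanog*-GFP-), 3NG- (CD44low ICAM1high *Nanog*-GFP-) and 3NG+ (CD44low ICAM1high *Nanog*-GFP+), all positive for the epithelial protein E-CADHERIN (E-CAD+), from both cassettes. OKMS cells also gave E-CAD- 2NG- and 3NG- populations. These 8 sorted populations were measured in 3 libraries apiece, and the remaining 12 conditions in 2. The latter comprised MEFs that were WT or carried a cassette, ESCs of 4 lines (TNG, its MKOS and OKMS derivatives, and E14), established induced pluripotent stem cell (iPSC) clones of either cassette without doxycycline (-dox) or in 2i, and D6, the iPSC line D6s4B5 with an MKOS transgene. The composition of 2i is not given in the sources used here. Neither the labels nor the methods say that replicates came from separate cultures, so p-values measure the spread between these libraries, which may be technical.

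A library held between 1429717 and 14174725 reads on transcripts, and levels are given as counts per 1e+06 of these reads (CPM). The level that 3 reads give was 0.212 to 2.10 CPM, a floor that covers counting error only. The labelled populations carried their markers. The summed level of 12 fibroblast genes was 3565 to 6417 CPM in MEFs and 98.0 to 1252 CPM in the 18 *Nanog*-GFP- libraries. In 3NG+ cells it was 127 to 726 CPM, within the range of *Nanog*-GFP- cells and above the at most 31.3 CPM of iPSCs -dox and ESCs. The summed level of 8 pluripotency genes was at most 11.5 CPM in MEFs and at least 11746 CPM in 3NG+ cells. The summed level of 8 epithelial genes was 98.4 to 247 CPM in OKMS E-CAD- cells and 753 to 1387 CPM in E-CAD+ *Nanog*-GFP- cells. In 3NG+ cells, which were also sorted as E-CAD+, it was 220 to 415 CPM and overlapped the E-CAD- cells. The lists include *Cdh1*, which encodes E-CADHERIN, and *Nanog*, so they are not independent of the sort. In bulk samples, fewer cells of a type and less RNA per cell cannot be told apart. Differences were tested with edgeR's quasi-likelihood test on all 48 libraries and called at a Benjamini-Hochberg adjusted p (FDR) of at most 0.05. Log2 fold changes are given with their standard errors (SE).

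In the GRCm38.p6 assembly, *Id1* lies on chromosome 2 (152736251 to 152737410, plus strand), *Id2* on chromosome 12 (25093799 to 25096092, minus strand), *Id3* on chromosome 4 (136143822 to 136145392, plus strand) and *Id4* on chromosome 13 (48261116 to 48266028, plus strand). *Bmp4* lies on chromosome 14 (46383525 to 46390669, minus strand), *Bmpr1a* on chromosome 14 (34411061 to 34503336, minus strand), *Smad6* on chromosome 9 (63953076 to 64022085, minus strand) and *Grem1* on chromosome 2 (113748675 to 113758648, minus strand). The 250 bases before the transcript start given in RefSeq's promoter table were searched for GGCGCC, a GC-rich element that BMP SMADs bind and that reads the same on both strands, and for the SMAD-binding element GTCTG or its complement CAGAC. Promoter sequences from RefSeq matched all of the genes but *Id1*. The window of *Bmpr1a* (34502547 to 34502796) lies inside the gene span given above, and that of *Smad6* (64022060 to 64022309) overlaps its end. GGCGCC stood once each in the windows of *Id2*, *Id4*, *Bmpr1a* and *Grem1* and in 9.54% of 27025 promoters. The shorter element stood 2 times in the window of *Id3*, once in that of *Grem1* and in 42.1% of promoters. The windows of *Bmp4* and *Smad6* held neither. The windows of *Id2*, *Id3* and *Id4* are printed because these targets of the pathway were called lower in MKOS *Nanog*-GFP- cells than in MKOS MEFs, and that of *Smad6*, which was called with them, as a window without either element. The elements are in capitals, and the letters run 5′ to 3′ on the strand of the gene.
*Id2*, chr12:25096093-25096342, minus strand: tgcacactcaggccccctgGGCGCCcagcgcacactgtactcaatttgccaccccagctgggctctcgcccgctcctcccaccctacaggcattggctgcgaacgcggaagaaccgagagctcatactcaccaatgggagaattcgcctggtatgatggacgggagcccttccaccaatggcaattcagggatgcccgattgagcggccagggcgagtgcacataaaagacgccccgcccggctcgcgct
*Id3*, chr4:136143572-136143821, plus strand: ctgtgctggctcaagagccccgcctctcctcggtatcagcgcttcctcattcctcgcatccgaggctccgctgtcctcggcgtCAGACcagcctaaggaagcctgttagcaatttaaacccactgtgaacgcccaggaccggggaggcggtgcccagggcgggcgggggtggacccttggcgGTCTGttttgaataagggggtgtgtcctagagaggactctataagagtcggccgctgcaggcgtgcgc
*Id4*, chr13:48260866-48261115, plus strand: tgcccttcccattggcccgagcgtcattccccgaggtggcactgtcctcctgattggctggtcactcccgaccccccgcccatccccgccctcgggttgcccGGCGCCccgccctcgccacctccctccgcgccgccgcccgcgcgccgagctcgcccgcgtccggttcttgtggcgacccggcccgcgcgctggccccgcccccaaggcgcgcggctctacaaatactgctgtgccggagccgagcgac
*Smad6*, chr9:64022060-64022309, minus strand: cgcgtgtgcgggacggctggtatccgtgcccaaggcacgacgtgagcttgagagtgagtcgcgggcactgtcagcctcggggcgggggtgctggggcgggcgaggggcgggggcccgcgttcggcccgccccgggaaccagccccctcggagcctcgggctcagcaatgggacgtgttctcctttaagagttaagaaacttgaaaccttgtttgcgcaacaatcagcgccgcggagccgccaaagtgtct
A match to these letters is not a measured binding site, and no binding was measured in these cells.

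*Bmp4*, which encodes the secreted ligand, was the gene of the 8 that was called between the cassettes in E-CAD+ *Nanog*-GFP- cells. Its level in MKOS cells was 15.1, 4.43 and 11.9 CPM in the 3 libraries of the 2NG- gate and 40.9, 39.5 and 31.8 CPM in the 3NG- gate. In OKMS E-CAD+ cells *Bmp4* was at 0.682, 0 and 1.83 CPM in the 2NG- gate and 7.14, 2.62 and 6.59 CPM in the 3NG- gate. Every MKOS library lay above every OKMS library of the same gate. Averaged over both gates, *Bmp4* was higher in MKOS than in OKMS E-CAD+ cells by 2.89 on the log2 scale (SE 0.41, FDR = 3.19e-06). It was higher by 3.15 in the 2NG- gate alone (SE 0.61, FDR = 0.00101) and by 2.64 in the 3NG- gate alone (SE 0.55, FDR = 0.00420). No other gene of the 8 was called between the cassettes in these cells, so that 1 of 8 was called, against 11.9% of all genes tested. In the same libraries the fibroblast genes summed to 564 to 1252 CPM in MKOS and 98.0 to 363 CPM in OKMS E-CAD+ cells, and the pluripotency genes to 2183 to 9584 CPM and 717 to 5177 CPM. Their part in the difference of *Bmp4* was not tested.

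In MEFs the levels of *Bmp4* overlapped. They were 14.1 and 32.6 CPM with MKOS, 16.2 and 21.0 CPM with OKMS and 28.2 and 14.4 CPM in WT cells. MKOS *Nanog*-GFP- cells, with 4.43 to 40.9 CPM, spanned the level of MKOS MEFs (log2 difference -0.27, SE 0.50, FDR = 0.736). In OKMS E-CAD+ *Nanog*-GFP- cells *Bmp4* fell by 2.81 on the log2 scale from OKMS MEFs (SE 0.50, FDR = 2.27e-05). The difference between these changes, 2.54 (SE 0.75), had an FDR of 0.0792 in the fit of all libraries. In this comparison of changes none of the 8 genes was called by edgeR, against 1.43% of all genes. Of the 8, 3 had an unadjusted p under 0.05 and DESeq2 called 1, *Bmp4*. Of all genes DESeq2 called 424 there, against 224 by edgeR. Shares of all genes at an unadjusted p under 0.05 are not given here for any comparison, so those counts have no background. Without replicate 3 of OKMS E-CAD+ 2NG-, the *Bmp4* difference was 3.22 with an FDR of 0.0250.

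OKMS E-CAD- cells held 9.87, 2.75 and 8.81 CPM of *Bmp4* in the 2NG- gate and 9.08, 2.79 and 6.53 CPM in the 3NG- gate. The E-CAD+ 2NG- libraries lay below all 3 E-CAD- 2NG- libraries, and the ranges of the 3NG- gate overlapped. Averaged over gates, *Bmp4* was lower in E-CAD+ than in E-CAD- cells (log2 difference -1.33, SE 0.41, FDR = 0.0401), with -2.57 in the 2NG- gate (SE 0.62, FDR = 0.0132) and -0.09 in the 3NG- gate (SE 0.56, FDR = 1). The averaged call was lost without any 1 of 8 of the 12 libraries. The FDR without 1 library reached 0.135, without replicate 1 of E-CAD- 3NG-. Only *Bmp4* and *Id2* were called between E-CAD+ and E-CAD- cells, 2 of 8 against 7.08% of all genes.

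**Figure D1:**
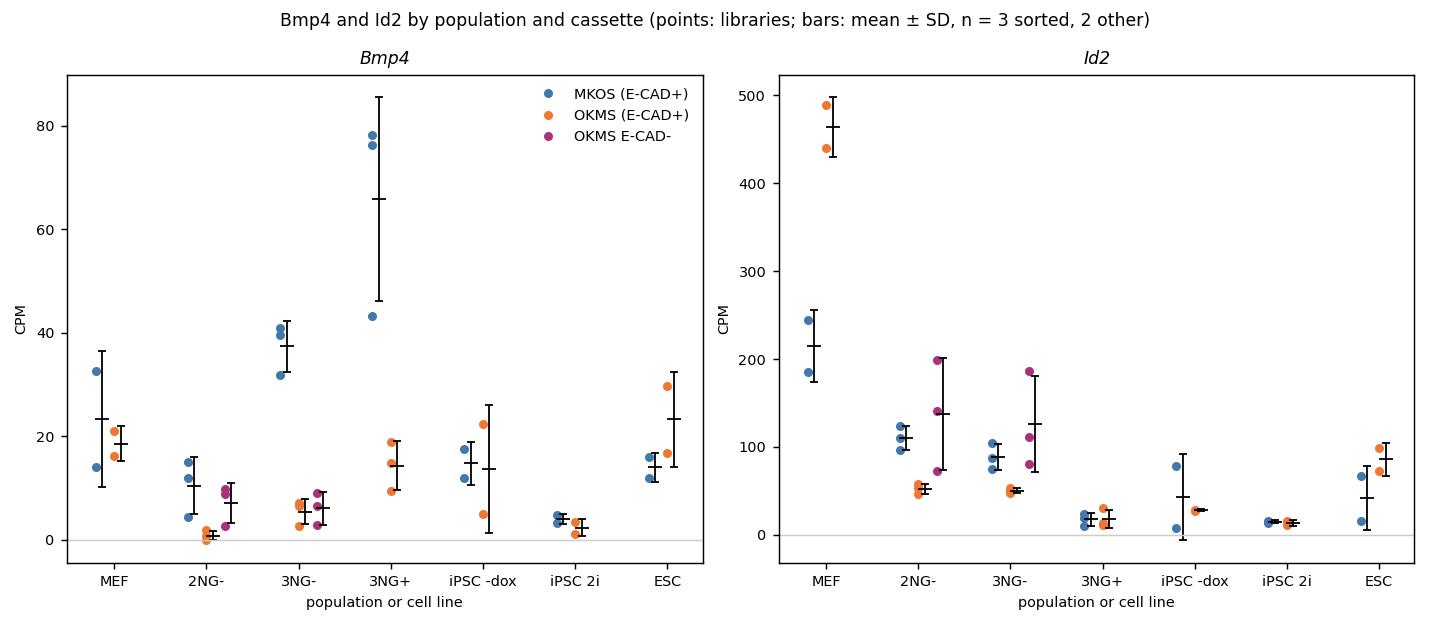
Levels of Bmp4 (left) and Id2 (right) in CPM for MEFs, sorted populations, iPSCs and ESCs that carry each cassette. Points are libraries and bars are the mean ± SD (n = 3 for sorted populations, n = 2 for the others). In MKOS cells Bmp4 reached 78.2 CPM in 3NG+ cells, whereas the highest OKMS 3NG+ library held 18.9 CPM. Id2 in OKMS E-CAD+ 2NG- and 3NG- cells lay between 46.5 and 57.4 CPM, below every MKOS and every OKMS E-CAD- library of these gates.

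From 2NG- to 3NG-, averaged over the 3 kinds of cells, *Bmp4* had a log2 difference of 1.25 (SE 0.33, FDR = 0.0891). None of the 8 genes was called between these gates by edgeR, against 0.192% of all genes. Of all genes DESeq2 called 120 between the gates, against 30 by edgeR. An unadjusted p under 0.05 was found for 1 of the 8, and DESeq2 called 1 of the 8, in both cases *Bmp4*. Without replicate 3 of OKMS E-CAD+ 2NG-, the difference was 1.71 with an FDR of 0.0141.

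In 3NG+ cells *Bmp4* was at 78.2, 76.3 and 43.2 CPM with MKOS and at 14.7, 18.9 and 9.44 CPM with OKMS. These groups did not overlap, and the log2 difference was 2.08 (SE 0.54, FDR = 0.0530), just above the threshold. Between the 3NG+ cells of the cassettes none of the 8 genes was called by edgeR, against 0.685% of all genes. Of the 8, 3 had an unadjusted p under 0.05 and 1, *Bmp4*, was called by DESeq2. Of all genes DESeq2 called 271 there, against 107 by edgeR. With a term for the replicate number added to the fit (the replicate block), the *Bmp4* difference was 2.09 with an FDR of 0.0349. Without replicate 3 of MKOS 3NG+ it was 2.30 with an FDR of 0.0432. All 3NG+ libraries lay above all 3NG- libraries of their cassette, with log2 differences of 0.98 in MKOS (SE 0.51, FDR = 0.336) and 1.54 in OKMS (SE 0.55, FDR = 0.0847). Whether these 2 steps differed was tested directly, and the difference of -0.56 (SE 0.74) had an FDR of 0.970.

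MKOS iPSCs -dox held 17.6 and 11.9 CPM of *Bmp4*, below all MKOS 3NG+ libraries (log2 difference -2.18, SE 0.61, FDR = 0.0477). *Bmp4* was the 1 gene of 8 called in this step, against 2.14% of all genes. The call was lost without either iPSC library (FDR 0.222 and 0.306), without replicate 1 or 2 of MKOS 3NG+ (FDR 0.106 and 0.112) and without TMM factors (FDR 0.0561). OKMS iPSCs -dox held 4.95 and 22.4 CPM, on both sides of OKMS 3NG+ cells. The 4 ESC lines held 8.10 to 29.7 CPM, within reach of the 14.1 to 32.6 CPM of MEFs. *Bmp4* was the gene of the 8 that was not called between TNG MKOS and TNG OKMS ESCs and the MEFs of the same cassettes (log2 difference -0.19, SE 0.44, FDR = 0.777), where the other 7 were lower in ESCs, against 50.9% of all genes called. The median log2 difference of the 8 in that comparison was -3.03, against 0 over all genes.

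*Bmpr1a*, which encodes a type I BMP receptor, was present in every library, between 11.1 and 66.1 CPM. In MEFs it was at 42.2 and 37.3 CPM (WT), 38.2 and 53.2 CPM (MKOS) and 59.6 and 66.1 CPM (OKMS). MKOS *Nanog*-GFP- cells held 15.4 to 33.8 CPM (median 18.6, n = 6), OKMS E-CAD+ cells 16.9 to 28.5 CPM (median 26.0, n = 6) and OKMS E-CAD- cells 27.8 to 40.0 CPM (median 32.1, n = 6). None of these ranges reached the MEFs of the same cassette. From MEFs, *Bmpr1a* fell by 1.18 on the log2 scale in MKOS cells (SE 0.26, FDR = 0.000398), by 1.28 in OKMS E-CAD+ cells (SE 0.25, FDR = 0.000120) and by 0.96 in OKMS E-CAD- cells (SE 0.26, FDR = 0.00444). These calls held under every alternative tried, although in E-CAD- cells the highest FDR was 0.0495. The 3NG+ libraries held 11.5 to 19.1 CPM, and TNG MKOS and TNG OKMS ESCs were lower than MEFs of the same cassettes by a log2 difference of -1.57 (SE 0.24, FDR = 6.99e-07). *Bmpr1a* was called in no comparison among sorted, iPSC and ESC populations.

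*Smad6* encodes an inhibitory SMAD that blocks receptor SMADs and is itself a BMP target. In MEFs it was at 23.3 and 28.4 CPM (MKOS), 21.9 and 24.3 CPM (OKMS) and 5.59 and 9.68 CPM (WT). Outside MEFs no library exceeded 5.49 CPM, so that many values lay near the floor of counting. *Smad6* fell from MEFs by 3.81 on the log2 scale in MKOS cells (SE 0.94, FDR = 0.00152), by 3.88 in OKMS E-CAD+ cells (SE 0.95, FDR = 0.00145) and by 3.84 in OKMS E-CAD- cells (SE 0.96, FDR = 0.00222). TNG MKOS and TNG OKMS ESCs had a log2 difference of -3.23 from MEFs of the same cassettes (SE 0.97, FDR = 0.00503). All 4 calls held under every alternative.

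*Grem1* encodes Gremlin, a secreted protein that binds and blocks BMP ligands. In MEFs it was at 30.6 and 41.6 CPM (OKMS), 3.79 and 16.2 CPM (MKOS) and 8.76 and 8.77 CPM (WT). OKMS E-CAD+ *Nanog*-GFP- cells held 0 to 2.35 CPM and OKMS E-CAD- cells 0 to 10.7 CPM, all below OKMS MEFs. The log2 differences from OKMS MEFs were -5.61 (SE 1.12, FDR = 0.000193) and -3.43 (SE 1.04, FDR = 0.0143), and the second was lost without replicate 2 of OKMS MEFs (FDR 0.0755). MKOS cells, with 0.886 to 7.04 CPM, overlapped MKOS MEFs, and *Grem1* was not called there (log2 difference -2.01, SE 1.06, FDR = 0.149). Without replicate 1 of MKOS 2NG-, which held 7.04 CPM, the difference was -2.87 with an FDR of 0.0459. No read of *Grem1* was found in 22 of 48 libraries, among them the 3 OKMS 3NG+ libraries. Taking 3 reads over these 3 libraries as the floor, *Grem1* was at least 9.90-fold lower there than in OKMS 3NG- cells, which held 1.43, 1.67 and 2.35 CPM, although this change was not called (FDR 0.0725). *Grem1* was called lower in TNG MKOS and TNG OKMS ESCs than in MEFs of the same cassettes (FDR = 4.17e-05), with 1 of the 4 ESC libraries above 0, at 0.547 CPM.

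**Figure D2:**
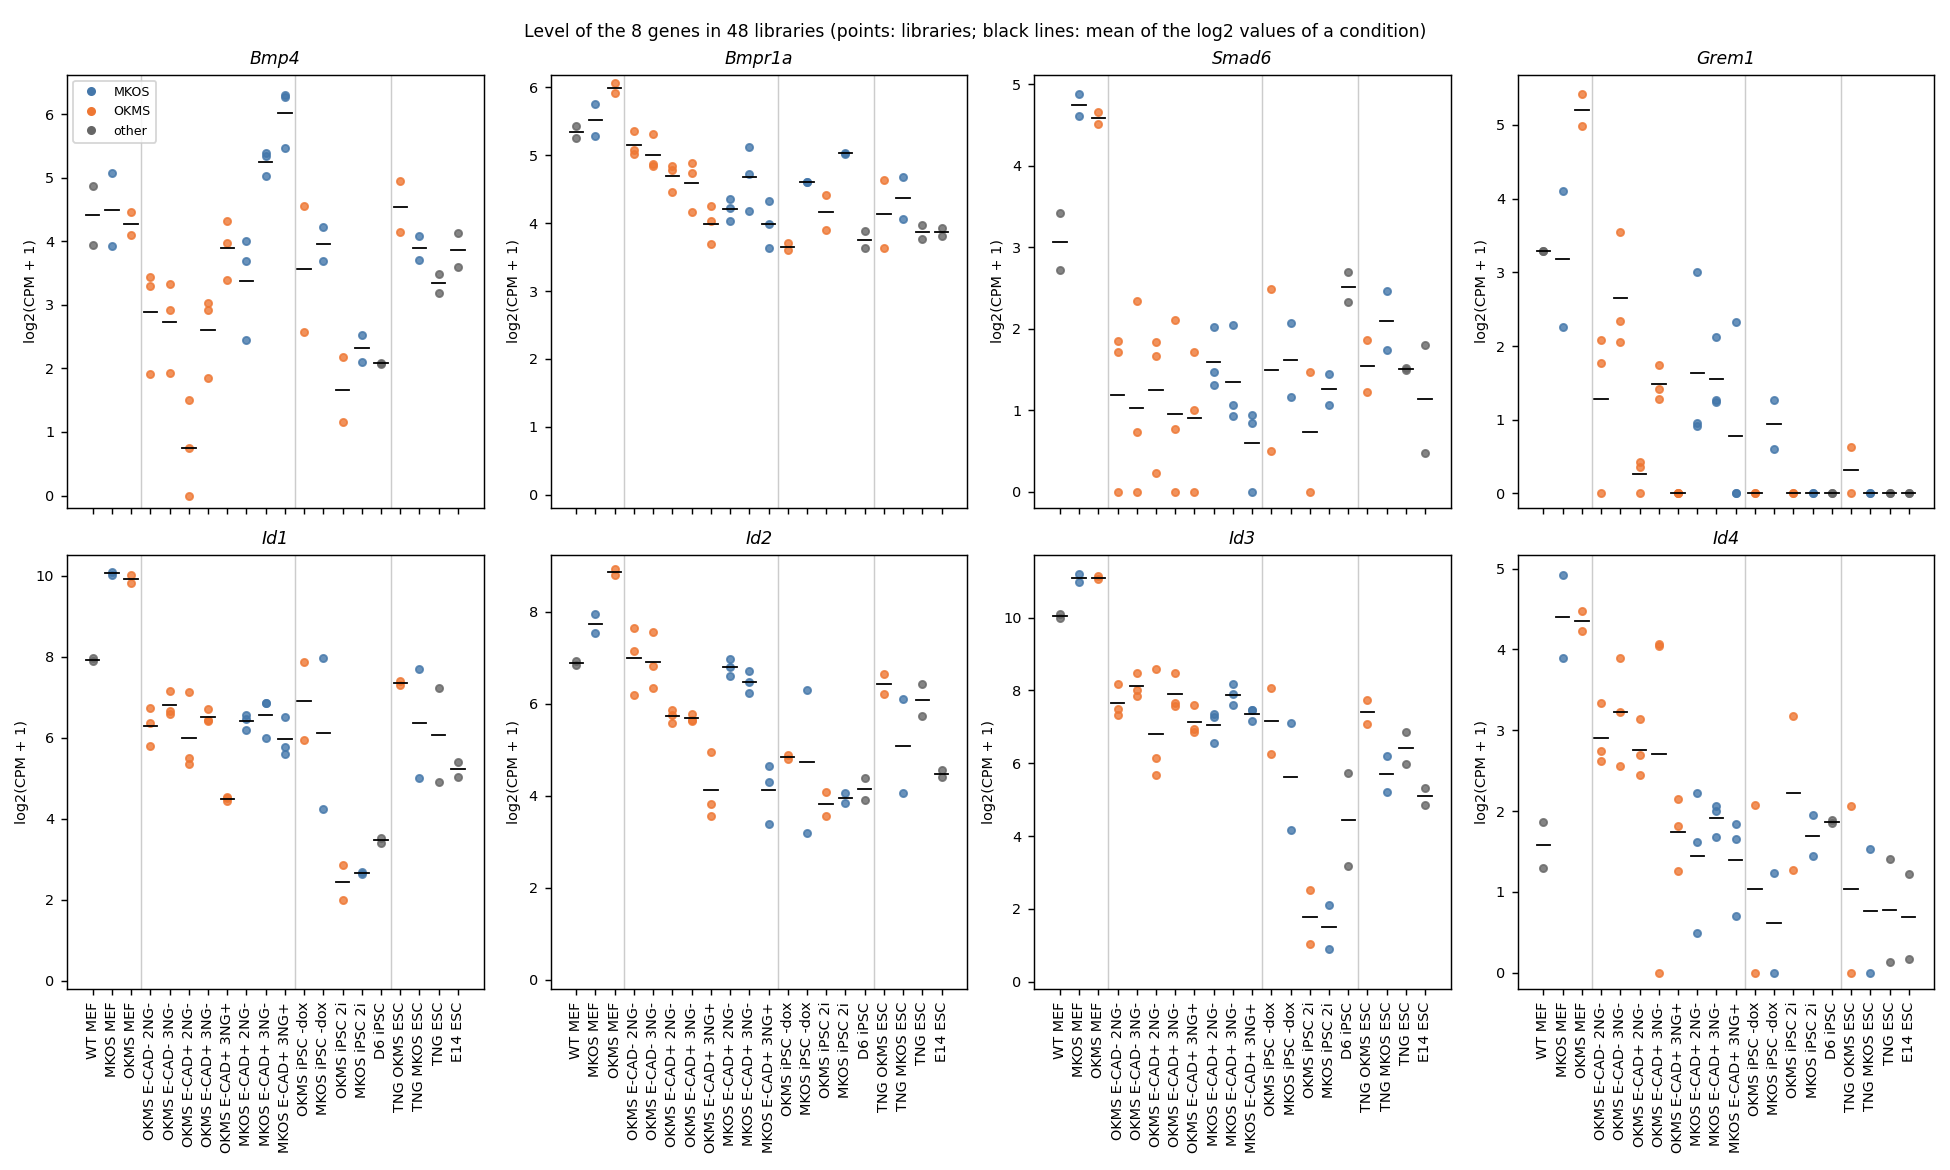
Level of each of the 8 genes as log2(CPM + 1) in the 20 conditions. Points are single libraries (blue MKOS, orange OKMS, grey other) and black lines are means of the log2 values. In Smad6, Id1, Id2, Id3 and Id4 all MKOS and OKMS MEF libraries lie above both WT MEF libraries, although none was called in the fit of all libraries. Bmp4 is highest in MKOS 3NG+ cells, and Id1 and Id3 are lowest in iPSCs in 2i.

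*Id1* and *Id3*, the classical direct targets of BMP SMADs, had their highest levels in MEFs. *Id1* was at 1098 and 1041 CPM in MEFs with MKOS and at 1031 and 903 CPM in those with OKMS. *Id3* was at 2344 and 2029 CPM and at 2243 and 2115 CPM in the same libraries. In the 18 *Nanog*-GFP- libraries *Id1* lay between 39.9 and 141 CPM (median 90.7) and *Id3* between 50.3 and 386 CPM (median 197). All of these libraries lay below all 6 MEF libraries in both genes. *Id1* fell by 3.64 on the log2 scale in MKOS cells (SE 0.51, FDR = 4.59e-07), by 3.46 in OKMS E-CAD+ cells (SE 0.51, FDR = 1.12e-06) and by 3.41 in OKMS E-CAD- cells (SE 0.51, FDR = 2.48e-06). *Id3* fell by 3.68 (SE 0.52, FDR = 4.73e-07), fell by 3.29 (SE 0.52, FDR = 3.16e-06) and fell by 3.23 (SE 0.52, FDR = 7.66e-06) in the same order. These falls held under every alternative tried.

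Between MKOS and OKMS E-CAD+ *Nanog*-GFP- cells, *Id1* had a log2 difference of 0.01 (SE 0.40) and *Id3* of -0.33 (SE 0.41), and neither was called. The spread among OKMS 2NG- libraries was wide. Replicate 3 held 139 CPM of *Id1* and 386 CPM of *Id3*, against 39.9 and 44.5 CPM and against 70.0 and 50.3 CPM in the other libraries. Without it the *Id3* difference became 0.46 (SE 0.37, FDR = 0.495). This library also had the highest sum of fibroblast genes, 324 CPM against 98.0 and 155 CPM, and of pluripotency genes, 2993 CPM against 909 and 717 CPM, among the OKMS E-CAD+ 2NG- libraries. The part of these genes in its *Id* levels was not tested.

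Counting all 8 genes, 6 fell from MKOS MEFs to MKOS *Nanog*-GFP- cells, against 32.5% of all genes called in either direction. From OKMS MEFs 7 fell in OKMS E-CAD+ cells, against 33.8%, and 7 fell in OKMS E-CAD- cells, against 24.8%. None rose in these 3 comparisons. When 1 library was left out, the counts were 4 to 7 in MKOS cells, with 4 without replicate 2 and 5 without replicate 1 of MKOS MEFs and 7 without replicate 1 of MKOS 2NG-. They stayed at 7 in OKMS E-CAD+ cells and were 5 to 7 in OKMS E-CAD- cells, with 5 without replicate 2 of OKMS MEFs. In MKOS cells 5 fell without the 7 libraries listed with the processing. The median log2 difference of the 8 was -2.61, -3.19 and -2.55, against 0 over all genes tested in each. The last 2 comparisons share the OKMS MEF libraries.

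MEFs with a cassette were also compared with WT MEFs, a comparison added after the values were seen. *Id1* was at 237 and 250.4 CPM in WT MEFs, below the 903 to 1098 CPM of MEFs with a cassette. *Id3* was at 1097 and 1022 CPM in WT MEFs and *Id2* at 120 and 114 CPM. In *Id1*, *Id2*, *Id3*, *Id4* and *Smad6*, all 4 libraries of MKOS and OKMS MEFs lay above both WT libraries. None of the 8 was called by edgeR, against 0.717% of all genes, with *Id1* at a log2 difference of 2.03 (SE 0.66, FDR = 0.203), 3 at an unadjusted p under 0.05 and 0 called by DESeq2. When the spread was estimated from the 6 MEF libraries alone, edgeR called these 5 genes, *Id1* with 2.03 (SE 0.26, FDR = 8.62e-13). The share of all genes called in that fit, or separated in this way, is not given here, so these counts have no background. Between MKOS and OKMS MEFs none of the 8 was called by edgeR, with 0 at an unadjusted p under 0.05 and 0 called by DESeq2, against 0.102% of all genes. When these libraries were fitted alone, edgeR called *Id2* (log2 difference -1.06, FDR 0.0141) and *Grem1* (-1.88, FDR 0.000189), both lower with MKOS. Their libraries did not overlap in *Id1*, *Id2*, *Bmpr1a* and *Grem1*. Shares of all genes are again not given, so these calls and this separation of 2 libraries from 2 have no background either.

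The choice of MEFs matters for *Id2*, *Id4*, *Grem1* and *Bmpr1a*. The *Nanog*-GFP- libraries stayed below WT MEFs in *Id1*, *Id3* and *Smad6*, the last with at most 4.08 CPM. Their ranges of *Id2* (46.5 to 199 CPM), *Id4* (0 to 15.8 CPM) and *Grem1* (0 to 10.7 CPM) included the WT MEF values. *Bmpr1a* reached 40.0 CPM in OKMS E-CAD- cells, against 42.2 and 37.3 CPM in WT MEFs. *Bmp4* ranged from 0 to 40.9 CPM, around the 28.2 and 14.4 CPM of WT MEFs, with at most 9.87 CPM in the OKMS libraries. These are levels side by side, and no fit against WT MEFs was made.

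*Id2*, a related dominant-negative regulator with a broader set of inducers, separated populations that *Id1* and *Id3* did not. In MEFs it was at 186 and 244 CPM with MKOS and 440.4 and 489 CPM with OKMS. OKMS E-CAD+ 2NG- cells held 46.5, 57.4 and 53.0 CPM and 3NG- cells 49.4, 53.6 and 48.03 CPM. OKMS E-CAD- cells held 72.1, 141 and 199 CPM in the 2NG- gate and 112, 80.5 and 186 CPM in the 3NG- gate, with no overlap with E-CAD+ cells. *Id2* was lower in E-CAD+ than in E-CAD- cells by a log2 difference of -1.22 (SE 0.32, FDR = 0.0114). The call was lost without replicate 3 of E-CAD- 3NG- (FDR 0.0517), without the 7 libraries listed with the processing (difference -0.90, FDR 0.190) and in either gate alone (FDR 0.161 and 0.205). In these libraries the fibroblast genes summed to 627 to 1085 CPM in E-CAD- and 98.0 to 363 CPM in E-CAD+ cells, and their part in the difference was not tested.

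MKOS *Nanog*-GFP- cells held 74.6 to 124 CPM of *Id2* (median 100.3, n = 6), above all OKMS E-CAD+ libraries, with a log2 difference of 0.84 that did not pass (SE 0.32, FDR = 0.0728). From MEFs *Id2* fell by 1.19 on the log2 scale in MKOS cells (SE 0.41, FDR = 0.0240), by 3.10 in OKMS E-CAD+ cells (SE 0.40, FDR = 7.78e-08) and by 1.87 in OKMS E-CAD- cells (SE 0.40, FDR = 0.000475). The first call was lost without either MKOS MEF library (FDR 0.0748 and 0.149) and without the 7 libraries (difference -1.08, FDR 0.0505). The test of the difference between the MKOS and OKMS E-CAD+ changes gave 1.91 (SE 0.63, FDR = 0.129).

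*Id2* also fell between MKOS 3NG- and 3NG+ cells. The 3NG+ libraries held 24.2, 9.48 and 18.8 CPM, against 87.4, 104 and 74.6 CPM in 3NG- cells, and the groups did not overlap. The log2 difference was -2.18 (SE 0.47, FDR = 0.00855), and *Id2* was the 1 gene of 8 called in this step, against 1.58% of all genes. The *Id2* call was lost without replicate 2 of MKOS 3NG+ (difference -1.91, FDR 0.103). In the same order of libraries the fibroblast genes summed to 726, 127 and 465 CPM in MKOS 3NG+ cells. In MKOS 3NG- cells they summed to 692 to 1252 CPM, and their part in the fall of *Id2* was not tested. *Id3* did not overlap either, at 143 to 175 CPM in 3NG+ and 192 to 288 CPM in 3NG- cells, but was not called. *Bmpr1a* had an unadjusted p under 0.05 and was not called. In OKMS cells *Id2* was at 10.9, 30.1 and 13.2 CPM in 3NG+ and 49.4, 53.6 and 48.03 CPM in 3NG- cells, with a log2 difference of -1.41 (SE 0.48, FDR = 0.0705). Without the library at 30.1 CPM, which is the shallowest of the series, the difference was -1.83 with an FDR of 0.0339. The steps of the cassettes were not shown to differ (difference -0.78, SE 0.66, FDR = 0.887), and none of the 8 genes was called in this comparison of steps by edgeR, against 0.0256% of all genes, with 1 at an unadjusted p under 0.05 and 0 called by DESeq2. From OKMS 3NG- to 3NG+ edgeR called none of the 8, against 6.26% of all genes. In that step *Id1*, *Id2*, *Bmp4* and *Grem1* had an unadjusted p under 0.05, and DESeq2 called these 4. Of all genes DESeq2 called 1481 in that step, against 979 by edgeR.

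*Id1* in OKMS 3NG+ cells was at 20.8, 22.4 and 21.7 CPM, below the 86.0, 84.3 and 103 CPM of OKMS 3NG- cells. The log2 difference of -1.87 (SE 0.61) had an FDR of 0.0563, and with the replicate block it was -1.88 with an FDR of 0.0461. MKOS 3NG+ cells held 90.7, 53.7 and 47.9 CPM, all above the OKMS 3NG+ libraries (log2 difference 1.39, SE 0.61, FDR = 0.333). OKMS iPSCs -dox held 235 and 60.6 CPM, and *Id1* was higher there than in OKMS 3NG+ cells by 2.76 on the log2 scale (SE 0.66, FDR = 0.0354), the 1 gene of 8 called, against 0.614% of all genes. Without the iPSC library at 235 CPM the difference was 1.41 with an FDR of 0.716, and the call was also lost without any 1 of the 3NG+ libraries (FDR 0.115 to 0.130). *Id3* did not move with *Id1* here, since it was at 123, 114 and 192 CPM in OKMS 3NG+ cells and at 269 and 75.0 CPM in the iPSCs.

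*Id4*, the member of the family best known from neural and glial precursors, was low. In MEFs it was at 13.8 and 29.2 CPM (MKOS), 21.2 and 17.8 CPM (OKMS) and 2.64 and 1.46 CPM (WT). MKOS *Nanog*-GFP- cells held 0.408 to 3.66 CPM and fell from MKOS MEFs by 3.22 on the log2 scale (SE 0.97, FDR = 0.00881), a call lost without replicate 2 of MKOS MEFs (difference -2.72, FDR 0.1001). OKMS E-CAD+ cells held 0 to 15.8 CPM and E-CAD- cells 4.90 to 13.9 CPM, below OKMS MEFs but not called (log2 differences -1.25, SE 0.99, and -1.37, SE 0.99). The second was called when the E-CAD- and MEF libraries were fitted alone (-1.33, FDR 0.0374). TNG MKOS and TNG OKMS ESCs had a log2 difference of -4.27 from MEFs of the same cassettes (SE 1.06, FDR = 0.000916), with 0, 1.89, 3.19 and 0 CPM in their 4 libraries.

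In established pluripotent lines the *Id* genes varied widely between the 2 libraries of a condition. *Id1* was at 17.9 and 251 CPM in MKOS iPSCs -dox, at 208 and 31.1 CPM in TNG MKOS ESCs, at 149 and 29.3 CPM in the parental TNG ESCs and at 157 and 169 CPM in TNG OKMS ESCs. *Id3* was at 16.8 and 138 CPM, 71.9 and 36.4 CPM, 115 and 62.7 CPM and 210 and 133 CPM in the same libraries. Where 1 library of a line was high in *Id1* by over 3-fold, the same library was the higher one in *Id3*. The pluripotency genes summed to 18467 and 16438 CPM in the MKOS iPSC -dox libraries, so that the library low in *Id1* was not low in these genes. The labels give no difference between the libraries of a pair. From 3NG+ to MKOS iPSCs -dox the sign of the *Id1* and *Id2* differences depended on 1 library, replicate 2 of MKOS iPSCs -dox, without which they were -1.86 and -1.14 instead of 1.07 and 1.28. Between iPSCs -dox and the TNG MKOS or TNG OKMS ESCs of the same cassette, edgeR called none of the 8, with 0 at an unadjusted p under 0.05 and 0 called by DESeq2, against 1.40% of all genes. TNG MKOS and TNG OKMS ESCs were lower than MEFs of the same cassettes by log2 differences of -2.83 in *Id1* (SE 0.52, FDR = 1.75e-05), -2.38 in *Id2* (SE 0.40, FDR = 3.71e-06) and -4.52 in *Id3* (SE 0.57, FDR = 1.46e-08).

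The iPSCs in 2i had the lowest levels of *Id1* and *Id3* in the series. *Id1* was at 5.19 and 5.50 CPM in MKOS iPSCs and 3.00 and 6.32 CPM in OKMS iPSCs in 2i, and *Id3* was at 0.865, 3.30, 4.76 and 1.05 CPM. The iPSCs -dox held 17.9, 251, 235 and 60.6 CPM of *Id1* and 16.8, 138, 269 and 75.0 CPM of *Id3*, with no overlap in either gene. In 2i *Id1* was lower by a log2 difference of -4.93 (SE 0.61, FDR = 6.98e-07) and *Id3* by -5.66 (SE 0.67, FDR = 2.75e-07). Both were called in each cassette alone, with -4.72 (SE 0.86, FDR = 0.00111) and -5.26 (SE 0.96, FDR = 0.00111) in MKOS, and -5.14 (SE 0.87, FDR = 0.000811) and -6.05 (SE 0.94, FDR = 0.000296) in OKMS. *Bmp4* was at 4.76 and 3.30 CPM in MKOS and 3.52 and 1.23 CPM in OKMS iPSCs in 2i, below all -dox libraries (log2 difference -2.29, SE 0.49, FDR = 0.00339), a call lost without replicate 2 of OKMS iPSCs -dox (FDR 0.0759) and in either cassette alone. *Id2* was called as well (log2 difference -1.41, SE 0.41, FDR = 0.0354) but overlapped, with 10.7 to 15.9 CPM in 2i and 8.09 to 77.9 CPM in -dox. Without replicate 2 of MKOS iPSCs -dox its difference was -0.20 with an FDR of 0.958, and leaving out any 1 of 6 other libraries also lost the call, as did the fit without TMM factors (FDR 0.0583).

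Thus 4 of the 8 genes were called in 2i, against 4.34% of all genes. *Bmpr1a* was at 31.6 and 31.7 CPM in MKOS and 13.9 and 20.4 CPM in OKMS iPSCs in 2i, and 23.4, 23.4, 11.1 and 12.1 CPM without doxycycline (log2 difference 0.40, SE 0.24, FDR = 0.419). The pluripotency genes summed to 12391 to 18407 CPM in 2i and 16438 to 18467 CPM in -dox libraries. The change to 2i was not shown to differ between cassettes in any of the 8 genes, with 0 called by edgeR, 0 at an unadjusted p under 0.05 and 0 called by DESeq2, against 0.00640% of all genes.

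**Figure D3:**
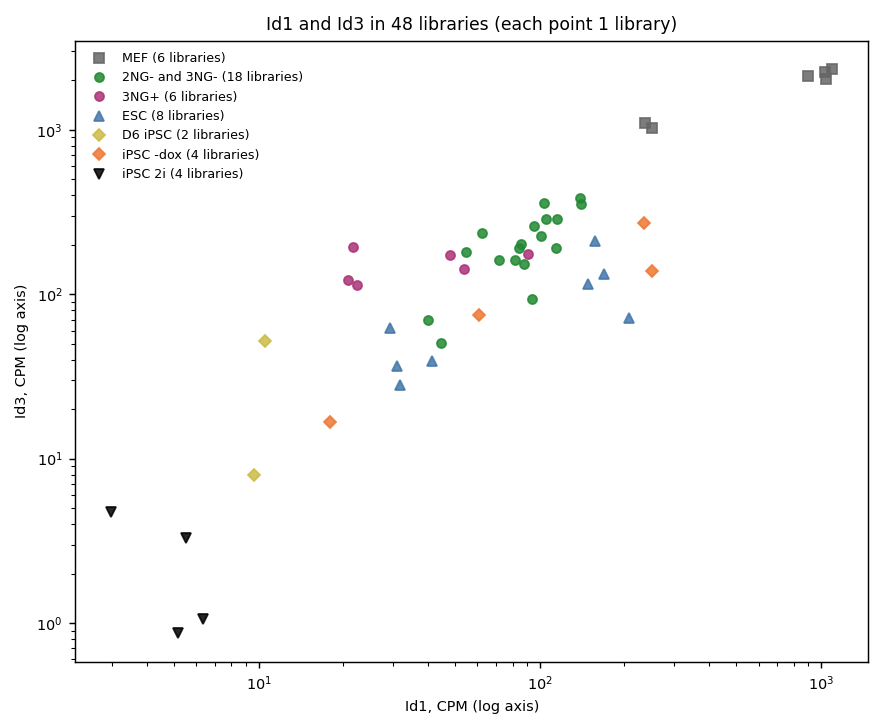
Level of Id1 against Id3 in CPM on log axes, 1 point for each of the 48 libraries, with symbols for the kind of cells. MEFs lie at the top right with 1022 to 2344 CPM of Id3, the iPSCs in 2i at the bottom left with at most 6.32 CPM of Id1, and the ESC and iPSC -dox libraries spread between them.

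**Figure D4:**
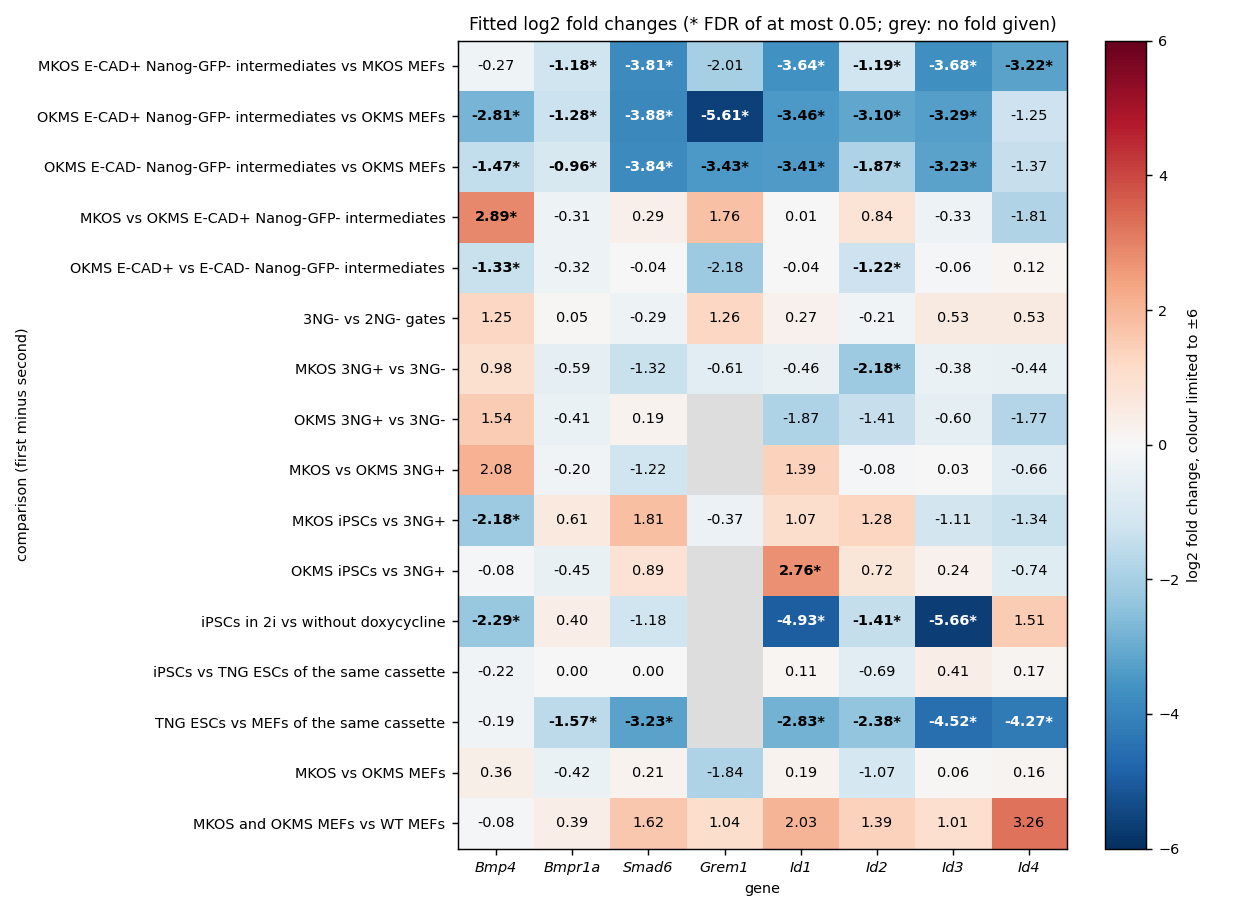
Fitted log2 fold changes of the 8 genes (horizontal axis) by comparison (vertical axis, first group minus second), in red for higher and blue for lower. Asterisks mark an FDR of at most 0.05, and grey cells are comparisons in which Grem1 had no read in a whole condition, so that no fold is given, including TNG MKOS and TNG OKMS ESCs against MEFs, where it was called. Most calls are falls from MEFs, with Bmp4 alone called between MKOS and OKMS E-CAD+ Nanog-GFP- cells.

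Other genes of the pathway were read from a list of 49 genes, 3 of them E proteins, and 47 were tested. From MEFs to *Nanog*-GFP- cells, 20 fell and 2 rose in MKOS cells, 20 fell and 2 rose in OKMS E-CAD+ cells, and 18 fell and 1 rose in OKMS E-CAD- cells, against 32.5%, 33.8% and 24.8% of all genes called. The calls of listed genes were not refitted without single libraries, and where 1 library moved a mean above 1 CPM given here by over 1.5 times, the values are given. Their median log2 differences were -1.62, -1.92 and -1.63, against 0 over all genes. In MKOS cells large changes, as mean CPM in MEFs and in *Nanog*-GFP- cells, were falls of the ligand genes *Gdf5* (3.91 to 0, from 1.84 and 5.98 in the MEF libraries) and *Gdf6* (5.44 to 0.0542), of the homeobox gene *Msx1* (23.9 to 0.302) and of *Hey1* (11.9 to 0.304), and a rise of the ligand gene *Bmp8b* (0.111 to 10.3). In OKMS E-CAD+ cells the 6 largest were a rise of *Cer1*, which encodes the secreted antagonist Cerberus (0 to 63.4, or 36.8 without replicate 3 of 2NG-), and falls of the homeobox gene *Dlx2* (20.3 to 0.0564), of *Atoh8* (23.1 to 0.186), of the type I receptor gene *Acvrl1* (3.10 to 0.0706, from 0.928 and 5.27 in the MEF libraries), of the antagonist gene *Nbl1* (28.8 to 0.977) and of the receptor SMAD gene *Smad9* (1.27 to 0.0235). OKMS E-CAD- cells shared the falls of *Dlx2*, *Atoh8* and *Acvrl1*, to 0.118, 0.442 and 0.113 CPM, next to falls of *Gdf5* and *Gdf6*, each to at most 0.127 CPM. Named after their values were seen, the type II receptor gene *Acvr2b* rose in all 3 comparisons, to between 6.18 and 11.1 CPM from at most 0.973 CPM, and *Smad7*, the other inhibitory SMAD gene, fell in all 3, from 52.8 to 24.2 CPM in MKOS and from 62.7 to 7.09 and 5.71 CPM in OKMS cells, whose MEF libraries held 39.7 and 85.7 CPM. *Smad7* was also the 1 listed gene called between MEFs with a cassette and WT MEFs, at 57.8 CPM on average against 12.4 CPM. Of all genes 0.717% were called there.

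Between MKOS and OKMS E-CAD+ *Nanog*-GFP- cells 3 of the 47 were higher in MKOS and 6 were lower, against 11.9% of all genes called. *Cer1* had no read in the 6 MKOS libraries. In OKMS cells it was at 0, 0 and 196 CPM in the 2NG- gate and at 34.4, 21.7 and 128 CPM in the 3NG- gate, so that 1 library, replicate 3 of 2NG-, held all reads of its gate. *Cer1* was at least 1015-fold lower in MKOS with 3 reads over the MKOS libraries as the floor, and at least 589-fold lower without that library, where the OKMS mean was 36.8 instead of 63.4 CPM. *Acvrl1* was higher in MKOS cells, at 2.85 against 0.0706 CPM, as was *Dlx2*, at 1.30 against 0.0564 CPM (0.853 CPM without replicate 2 of MKOS 2NG-). *Sost*, *Hfe2* and *Hey1* were lower in MKOS cells, each with at most 2.03 CPM on average in either group. The other 3 called genes were named after their values were seen. They were *Smad1*, a receptor SMAD gene, at 3.39 CPM in MKOS against 12.4 CPM in OKMS, *Smad7* at 24.2 against 7.09 CPM, and *Tcf12*, which encodes an E protein that Id proteins bind, at 21.7 against 55.1 CPM. The ligand gene *Bmp4* and the antagonist gene *Cer1* stood on opposite sides of this comparison, as did the inhibitory *Smad7*, higher in MKOS, and *Smad1*, lower there. Activity of the pathway was not measured.

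*Tcf12* recurred in other comparisons. It was lower in OKMS E-CAD+ than in E-CAD- cells (55.1 against 107 CPM), as was the E protein gene *Tcf4* (16.1 against 34.5 CPM), the 2 listed genes called there. *Tcf12* was the 1 listed gene called between MKOS and OKMS 3NG+ cells (10.1 against 30.6 CPM), between OKMS iPSCs -dox and 3NG+ cells (4.53 against 30.6 CPM, with 6.39 and 2.67 CPM in the iPSC libraries), and between iPSCs in 2i and -dox (14.6 against 6.01 CPM). In these comparisons 0.685%, 0.614% and 4.34% of all genes were called. From OKMS 3NG- to 3NG+, *Smad1* fell from 13.1 to 2.26 CPM and *Smad9* rose from no read to 2.77 CPM. Both were called, against 6.26% of all genes. The 3NG+ libraries held 3.91, 0 and 2.86 CPM of *Smad1* and 0.883, 6.30 and 1.15 CPM of *Smad9*, whose mean was 1.01 CPM without replicate 2, the shallowest library. No listed gene was called from 2NG- to 3NG-, from MKOS 3NG- to 3NG+, from MKOS 3NG+ to iPSCs, or between iPSCs and ESCs. Of all genes 0.192%, 1.58%, 2.14% and 1.40% were called there. From MEFs to TNG MKOS and TNG OKMS ESCs 25 fell and 3 rose, against 50.9% of all genes called, with a median log2 difference of -2.61. Among those with the largest changes, *Atoh8*, *Dlx2*, *Nbl1*, *Bmper* and *Fst* were at 14.2 to 81.6 CPM in MEFs and at most at 0.534 CPM in ESCs.

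The genes most like each member across the 20 condition means of log2(CPM + 1) were named by Pearson's r, as a description of 20 points that share the high MEF values. For *Id1* they were *Dusp6* (r = 0.932), *Id3* (0.905) and *Prmt2* (0.901), for *Id2* *Prmt2* (0.925), *Bnip2* (0.910) and *Ssbp3* (0.909), and for *Id3* *Tmsb4x* (0.910), *Plxdc2* (0.909) and *Igfbp3* (0.908). For *Id4* the first was the Notch target gene *Hes1* (0.898), followed by *Tmem35* (0.880) and *Sowahc* (0.863). *Bmpr1a* was closest to *Man2a2* (0.939), *Spg20* (0.932) and *Lrrc41* (0.924), *Smad6* to *Zfpm2* (0.929), *Wnt9a* (0.924) and *Prr16* (0.924), and *Grem1* to *Plod3* (0.957), *Apbb1ip* (0.956) and *6330406I15Rik* (0.955). *Bmp4* had the least similar neighbours, *Lgr4* (0.840), *Scfd2* (0.795) and *Rarg* (0.767), and these, unlike the neighbours of the other 7 genes, had their highest mean in TNG MKOS or TNG OKMS ESCs rather than in MEFs.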

How the data were processed

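RNA of 48 libraries was sequenced with STRT. The authors aligned the reads and deposited unnormalized counts of reads per transcript and repeat type. Per the file headers, a read with more than 1 genomic hit was counted at its 5′-most exon hit. The submitters' processing notes name Bowtie 0.12.7 and mm10, and the methods name mm9. The deposited position lay inside the gene for 62.1% of 20604 symbols shared with the GRCm38.p6 gene table of RefSeq, which gave the coordinates. Conditions came from the sample labels. CPM was computed over transcripts, without repeats. Differences were tested in edgeR 4.0.16 (R 4.3.3) with TMM factors, its default filter on low counts and a quasi-likelihood fit in which every condition had its own mean, and p-values were adjusted over 15630 genes. The code was tested on simulated counts. Gates or cassettes that were averaged had equal weight. Fits without 1 library kept the filter and the dispersion trend of the full fit. DESeq2 1.42.0 gave an alternative, and the percentages of all genes called are those of edgeR. Fits without 7 libraries left out replicate 3 of the 6 *Nanog*-GFP- populations and replicate 2 of OKMS 3NG+. Figures were drawn with Matplotlib 3.10.9. The members and gene lists were chosen with earlier results of these data known. Named genes were the 8 members, of the other listed genes the called ones with the 6 largest changes in a comparison, and the 3 genes most like each member. The values of 1 listed gene that met this rule are not reported here.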

Additional observations from a re-analysis of the deposited data

How the results depend on the processing

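Of 37 calls of the 8 genes, 26 were kept under every alternative tried and 11 were lost under at least 1. Except for DESeq2, single gates and single cassettes, shares of all genes under an alternative are not given, so the counts below have no background. The number of the 8 genes called changed as follows, and the cause was not tested. Without TMM factors it was 2 instead of 1 between MKOS and OKMS E-CAD+ *Nanog*-GFP- cells, 2 instead of 0 from OKMS 3NG- to 3NG+, 1 instead of 0 between the 3NG+ cells, 0 instead of 1 from MKOS 3NG+ to iPSCs, and 3 instead of 4 in 2i. Without the filter on low counts the same comparisons gave 3, 4, 2 and 4, the gates 2, the difference in change from MEFs 2 and that from 3NG- to 3NG+ 1 instead of 0, and MEFs with a cassette against WT MEFs 3 instead of 0. The replicate block was a term for the replicate number over all 48 libraries. Sorted cells, MEFs, iPSCs and ESCs with the same number shared it, so it does not model a pairing of the sorted libraries alone. The replicate block gave 1 from OKMS 3NG- to 3NG+ and 1 between the 3NG+ cells, and changed no other call. Libraries with the same number correlated by 0.104 on average over 84 pairs (range -0.0593 to 0.444, 36 above 0.1), and those with different numbers by -0.0517 over 168 pairs (7 above 0.1). Of 24 sorted libraries 20 correlated best with their own number, a hint from the data only. The numbers were not taken to pair the libraries, because not every same-numbered pair was above 0.1. Without the 7 libraries 5 instead of 6 were called from MKOS MEFs to MKOS *Nanog*-GFP- cells, 1 was called between E-CAD+ and E-CAD- cells instead of 2, and 1 instead of 0 between the gates, from OKMS 3NG- to 3NG+, between the 3NG+ cells and in the difference in change from MEFs. Libraries compared alone gave 2 between the cassettes, 1 for E-CAD, 2 for MKOS and 2 for OKMS 3NG+ against 3NG-, 2 between the 3NG+ cells, 2 between MKOS and OKMS MEFs, 1 in the difference from MEFs, 5 against WT MEFs and 8 instead of 7 from OKMS MEFs to E-CAD- cells. DESeq2 gave 1, 4, 1 and 1 for the gates, OKMS 3NG+, the 3NG+ cells and the difference from MEFs. In the same order it called 120, 1481, 271 and 424 of all genes, against 30, 979, 107 and 224 by edgeR. For E-CAD, 1 was called in the 2NG- and 0 in the 3NG- gate, and for 2i, 2 in MKOS and 2 in OKMS alone instead of 4. Leaving out 1 library gave 4 to 7 from MEFs in MKOS and 5 to 7 in OKMS E-CAD- cells, 0 to 2 for E-CAD, 2 to 4 for 2i, and 0 to 1 for the gates, both 3NG+ steps, the 3NG+ cells, both iPSC steps, iPSCs against ESCs and the difference from MEFs. The difference of *Id2* between iPSCs and ESCs ranged from -1.90, called without replicate 2 of MKOS iPSCs -dox, to 0.16. Between the cassettes, *Id1* ranged from -0.14 to 0.47 and was -0.016 in the 3NG- gate, and *Id3* ranged from -0.55 to 0.46 and was 0.61 without the 7 libraries. Against 3NG+, *Id1* in MKOS iPSCs ranged from -1.86 to 1.98 and *Id2* from -1.14 to 2.15. The fall of *Bmp4* in OKMS E-CAD- cells was lost without replicate 2 of either E-CAD- gate or without either OKMS MEF library (FDR 0.0546 to 0.145). Low counts limit *Smad6*, *Grem1* and *Id4*.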

Other observations

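D6 iPSCs, E14 ESCs and the parental TNG ESCs entered no comparison. D6 cells, of which 2 libraries were made, held 9.63 and 10.51 CPM of *Id1*, between the iPSCs in 2i and the iPSCs -dox, and 7.97 and 52.0 CPM of *Id3*. Their *Bmp4*, at 3.21 and 3.24 CPM, was in the range of iPSCs in 2i, and their *Smad6*, at 5.49 and 4.03 CPM, included the highest value outside MEFs. E14 ESCs held 41.5 and 31.8 CPM of *Id1*, 22.4 and 20.2 CPM of *Id2* and 39.1 and 28.1 CPM of *Id3*. TNG ESCs held 85.3 and 52.2 CPM of *Id2* and 10.2 and 8.10 CPM of *Bmp4*.

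Across the 20 condition means of log2(CPM + 1), Pearson's r was 0.905 between *Id1* and *Id3*, 0.841 between *Id1* and *Id2*, 0.833 between *Id2* and *Grem1* and 0.805 between *Id2* and *Id3*. The conditions share the high values of MEFs, and these are descriptions without a test.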
